A study of Mus musculus with 16 samples.

Results

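The genes described here are 10 transcriptional regulators of fat and lipid metabolism: the nuclear receptors Pparg, Ppara, Ppard and Rxra, the C/EBP factors Cebpa, Cebpb and Cebpd, the coactivators Ppargc1a and Ppargc1b, and the factor Klf15. They were chosen by symbol, and every probe annotated to these symbols was taken from a bead array of 25697 probes. This gave 11 probes for 9 of the 10 genes, with 3 for Pparg and 1 for each of the others. Cebpd was not analysed here because no probe carried its symbol in the annotation used. Expression was measured with Illumina MouseRef-8 arrays in liver and in eWAT, the white adipose tissue that lies along the epididymis. The mice were Fgf1 null, which lack the gene for the secreted growth factor FGF1, or wild-type. Their diet was high-fat (HFD) or normal chow, for 16 weeks up to an age of 24 weeks. The 8 groups are therefore Fgf1 null on HFD, Fgf1 null on chow, wild-type on HFD and wild-type on chow, each in liver and in eWAT. Every group has 2 arrays, described in the labels as technical replicates, which makes each group 1 RNA sample. Whether that RNA was from a pool or from 1 mouse is not stated in the labels. Standard errors and p-values below therefore measure the spread between arrays of the same RNA and not the spread between mice.

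PPARγ (Pparg) is the master regulator of fat cell formation and switches on genes for fatty acid uptake, lipid droplet coating and triglyceride synthesis. PPARα (Ppara) drives fatty acid oxidation and ketone production in the liver, and PPARδ (Ppard) has related roles in many tissues. All of them bind DNA as a pair with a retinoid X receptor, of which RXRα (Rxra) is the main form in liver. C/EBPβ and C/EBPδ act early in the formation of fat cells and precede PPARγ and C/EBPα, which then maintain each other, while in hepatocytes C/EBPα and C/EBPβ drive genes of glucose, urea and plasma protein synthesis. PGC-1α (Ppargc1a) and PGC-1β (Ppargc1b) are coactivators that bind nuclear receptors and raise mitochondrial genes, and in liver PGC-1α also raises gluconeogenic genes. KLF15 (Klf15) is a fasting-responsive zinc finger factor that promotes amino acid breakdown and gluconeogenesis.

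Promoter windows of 250 bases before and 50 bases after annotated transcription starts were available in the RefSeq promoter table of mouse build GRCm38.p6 for 8 of the 10 genes, in 11 windows. They were searched on both strands for the C/EBP motif TTGCNNAA, the single nuclear receptor motif AGGTCA, the paired PPAR and RXR motif, which repeats that motif after a spacer of 1 base and so contains it, and the cyclic AMP response core TGACGT. One Pparg window and the Ppargc1a window are shown because Pparg, Cebpa and Cebpb were called higher in the same eWAT comparisons, and because Ppargc1a is a textbook cyclic AMP responsive gene. In the Pparg window at chr6:115421816-115422115, forward strand, capitals mark 2 C/EBP motif matches, at -215 and -16 from the start. In the Ppargc1a window at chr5:51567676-51567975, reverse strand, capitals mark the cyclic AMP core at -50, which lies on the opposite strand to the gene.
Pparg: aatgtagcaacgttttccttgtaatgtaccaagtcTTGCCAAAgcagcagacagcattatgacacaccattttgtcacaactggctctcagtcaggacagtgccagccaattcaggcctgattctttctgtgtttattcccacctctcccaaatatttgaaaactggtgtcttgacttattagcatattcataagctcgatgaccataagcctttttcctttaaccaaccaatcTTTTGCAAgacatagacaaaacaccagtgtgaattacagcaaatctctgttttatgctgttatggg
Ppargc1a: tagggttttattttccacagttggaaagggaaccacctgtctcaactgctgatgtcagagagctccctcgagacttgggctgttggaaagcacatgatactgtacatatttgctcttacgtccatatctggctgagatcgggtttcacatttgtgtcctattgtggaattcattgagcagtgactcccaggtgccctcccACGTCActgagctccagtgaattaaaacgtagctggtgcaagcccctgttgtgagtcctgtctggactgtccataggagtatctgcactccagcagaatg
Among all 32851 windows of 300 bases in the table, the C/EBP motif occurs in 10.8%, the cyclic AMP core in 7.51%, the single receptor motif in 16.3% and the paired motif in 0.0396%. The other Pparg windows each held 1 single receptor motif, at -28 and at -9, and 1 Rxra window held 2, at -87 and -48. No match to any of these motifs was found in the Ppara, Ppard, Cebpa, Cebpb and Klf15 windows. These matches describe letters in the windows only.

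Detected probes, those brighter than the array's negative controls at a detection p under 0.05, numbered 10626 to 11650 per array in liver and 13570 to 15399 in eWAT, and the 2 arrays of a group correlated at r = 0.985 to 0.993 in liver and 0.989 to 0.995 in eWAT. Fgf1 itself was detected on every array: it was 2.69-fold lower in the Fgf1 null than in the wild-type liver on HFD and 2.82-fold lower in eWAT on HFD. On chow, Fgf1 null liver was 1.93-fold below wild-type (-0.95 ± 0.13 on the log2 scale, adjusted p 0.0091), while the eWAT sample labelled Fgf1 null read 0.67 ± 0.17 above wild-type (log2, adjusted p 0.012), both under 2-fold. A dimmer Fgf1 probe read 7.69 and 7.63 in Fgf1 null HFD eWAT against 7.55 and 7.29 in wild-type HFD eWAT. Where either probe lies with respect to the deletion is not stated in the sources used here, so these readings do not settle the labels, and the chow eWAT of that genotype is called labelled Fgf1 null throughout. Levels below are log2 intensities after background correction and quantile normalization within a tissue. Differences are given ± the standard error of limma with n = 2 arrays per group, and a gene is called when its Benjamini-Hochberg adjusted p over all genes tested is under 0.05 and it differs at least 2-fold.

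The eWAT samples differed in markers of other tissues. Hepatocyte markers summed, on the linear scale shared by both tissues, to 54000 to 57100 in Fgf1 null HFD eWAT, 11000 to 11500 in the chow eWAT labelled Fgf1 null, 213000 to 224000 in wild-type HFD eWAT and 35000 to 35500 in wild-type chow eWAT, against 570000 to 622000 in the 4 livers. Of the 15 hepatocyte markers, 11 or 12 were detected on both arrays of the eWAT samples other than wild-type HFD. In wild-type HFD eWAT 13 were, with Alb and Fgb detected on neither array. In each liver sample 13 were likewise detected on both arrays, with the Fgb probe undetected in all 4 and the Alb probe undetected in Fgf1 null chow. Exocrine pancreas markers, 17 on the array, were all detected on both arrays of the HFD eWAT samples, summing to 663000 to 669000 in Fgf1 null and 92900 to 95400 in wild-type, against at most 1780 in the chow eWAT samples. Sperm and testis markers, 8 on the array, summed to at most 2350 in the other eWAT samples but to 105000 to 107000 in wild-type chow eWAT, where all 8 were detected on both arrays. Epididymis markers, 10 on the array, summed to 28700 to 30200 in Fgf1 null HFD eWAT, 53500 to 53900 in the chow eWAT labelled Fgf1 null, 360 to 389 in wild-type HFD eWAT and 105000 to 115000 in wild-type chow eWAT. Adipocyte markers summed to 121000 to 128000, 103000 to 114000, 141000 to 147000 and 54600 in the same order of samples, with 1 of 7, Fabp4, undetected in Fgf1 null HFD and in wild-type chow. Macrophage markers, 9 on the array, summed to 13300 to 13900, 67000 to 67900, 19100 to 20700 and 4050 to 4110 in that order. With 1 RNA sample per group, leaving a sample out ends its comparisons, and the part of these other tissues in the differences below was not tested. In such whole tissues, fewer cells of a type and less RNA per cell cannot be told apart.

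In eWAT, Pparg was higher on HFD than on chow in wild-type, and on chow it was higher in the sample labelled Fgf1 null than in wild-type. On its brightest probe it read 12.72 and 12.76 in Fgf1 null HFD eWAT, 11.88 and 11.94 in the chow eWAT labelled Fgf1 null, 12.72 and 12.87 in wild-type HFD eWAT and 10.78 and 10.72 in wild-type chow eWAT. The HFD samples of both genotypes overlapped as the highest, the chow sample labelled Fgf1 null lay between, and wild-type chow was lowest. In wild-type eWAT Pparg was thus 4.12-fold higher on HFD than on chow (2.04 ± 0.11, adjusted p 1.8e-06). The difference in Fgf1 null eWAT was 1.78-fold (0.83 ± 0.11, adjusted p 0.0012), short of the 2-fold minimum, and was called at 1.01 with the mean of the kept probes and just past 2-fold with median scaling. The diet difference was smaller in Fgf1 null than in wild-type by a test of the interaction (-1.21 ± 0.16, adjusted p 0.00035). On chow, the sample labelled Fgf1 null was 2.23-fold above wild-type (1.16 ± 0.11, adjusted p 6.5e-05), while on HFD the genotypes differed by -0.06 ± 0.11 (adjusted p 0.75). Wild-type chow eWAT, the lowest in Pparg, was also the sample with the lowest adipocyte marker sum and with sperm and testis markers. Its macrophage marker sum was the lowest too, at 4050 to 4110. That sum was highest, at 67000 to 67900, in the chow sample labelled Fgf1 null, which lay between in Pparg.

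**Figure D1:**
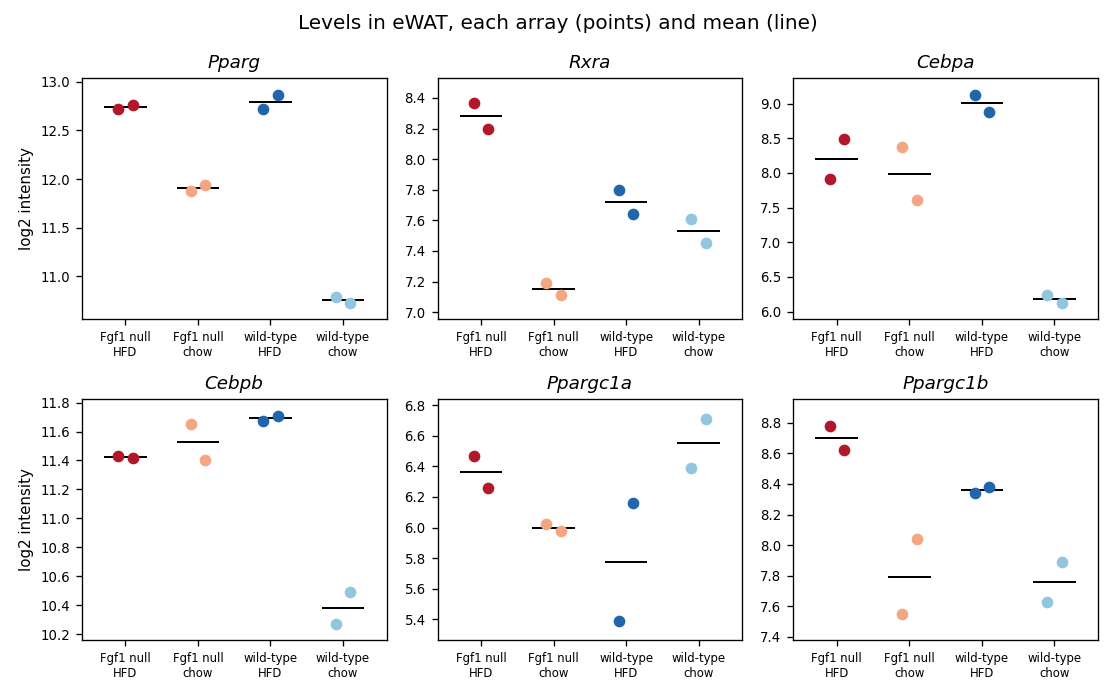
Log2 intensity (vertical axis) of the 6 members tested in eWAT, by genotype and diet; points are the 2 arrays of a group and the line is their mean. Pparg, Cebpa and Cebpb are lowest in wild-type chow, where Pparg reads 10.72 and 10.78, and Rxra is highest in Fgf1 null HFD.

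The other Pparg probes did not give the same picture in every comparison. In a fit over all 15839 eWAT probes, the HFD minus chow difference in wild-type was 2.04 ± 0.12 on the brightest probe (ILMN_1221060), 1.99 ± 0.14 on the next (ILMN_1221594) and 2.34 ± 0.18 on the dimmest (ILMN_1221893), all called. On chow, the sample labelled Fgf1 null exceeded wild-type by 1.16 ± 0.12, 1.16 ± 0.14 and 1.14 ± 0.18, again all called. For diet in Fgf1 null, the 3 values were 0.83 ± 0.12, 1.58 ± 0.14 and 0.60 ± 0.18, of which only that of ILMN_1221594 was called. On HFD, the probes differed in sign between Fgf1 null and wild-type, at -0.06 ± 0.12, 0.75 ± 0.14 and -0.60 ± 0.18, none called. The interaction was -1.21 ± 0.17, -0.41 ± 0.20 and -1.73 ± 0.25, and it was not called on ILMN_1221594 (adjusted p 0.12). The lower Pparg of wild-type chow eWAT was thus seen on all 3 probes, and the difference in diet response between genotypes on 2 of 3.

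**Figure D2:**
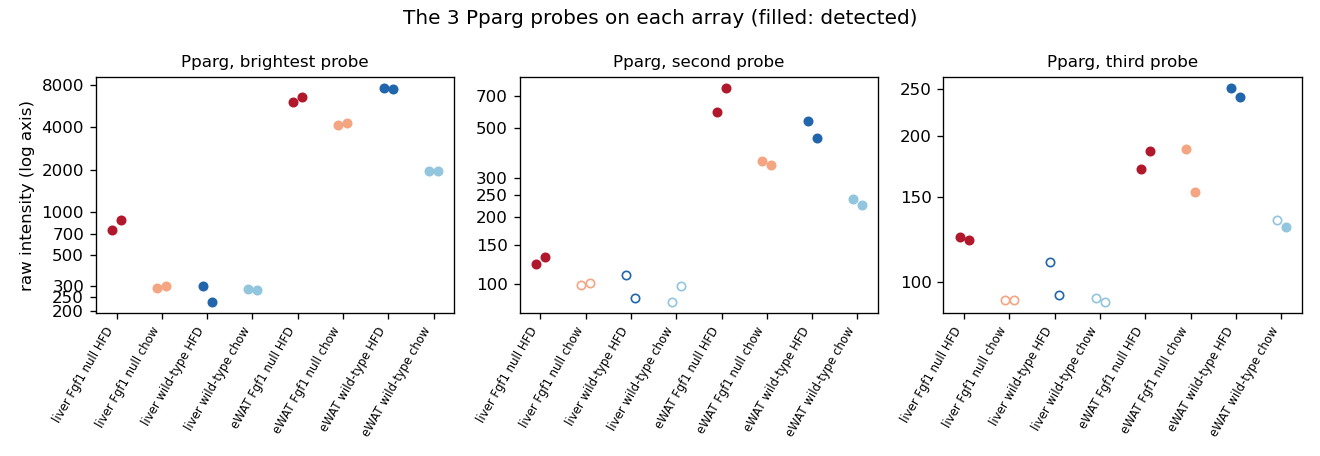
Raw intensity (vertical log axis) of the 3 Pparg probes on the 16 arrays, one panel per probe, with liver groups left of eWAT groups; filled points are detected and open points are not. In liver the brightest probe is highest in Fgf1 null HFD, at 748 and 879, and the other probes are detected only there.

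Of the other receptors, Rxra was the only member called in the diet comparison of Fgf1 null eWAT. It read 8.37 and 8.20 in Fgf1 null HFD eWAT, 7.19 and 7.11 in the chow eWAT labelled Fgf1 null, 7.80 and 7.64 in wild-type HFD eWAT and 7.61 and 7.45 in wild-type chow eWAT. It was thus 2.20-fold higher on HFD in Fgf1 null (1.14 ± 0.13, adjusted p 0.00048), against a wild-type diet difference of 0.19 ± 0.13 (adjusted p 0.23). The interaction of 0.95 ± 0.18 had an adjusted p of 0.0025 but was under 2-fold, and it passed 2-fold, at 1.02 to 1.03, without any 1 of 3 arrays. The call in Fgf1 null was lost, at 0.98, 0.78 and 0.73, with an offset of 50, without background correction and in the authors' normalized values, each under 2-fold. Ppara, the receptor of hepatic fat oxidation, was detected on 0 of 8 eWAT arrays, with raw intensities of 112 to 131. Ppard was detected on 2 of 8, 1 in the chow sample labelled Fgf1 null and 1 in wild-type HFD, so no difference is given for either.

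Cebpa and Cebpb were called in the same 3 eWAT comparisons as the brightest Pparg probe. Cebpa read 7.91 and 8.49 in Fgf1 null HFD eWAT, 8.37 and 7.61 in the chow eWAT labelled Fgf1 null, 9.13 and 8.88 in wild-type HFD eWAT and 6.24 and 6.12 in wild-type chow eWAT. Wild-type HFD was highest and wild-type chow lowest, with the other 2 samples overlapping between them. Wild-type HFD eWAT also had the highest hepatocyte marker sum of the eWAT samples, 213000 to 224000, against 35000 to 35500 in wild-type chow. The part of hepatocyte RNA in the Cebpa differences was not tested. Cebpa was 7.08-fold higher on HFD in wild-type eWAT (2.82 ± 0.27, adjusted p 4.5e-05) and differed by 0.21 ± 0.27 in Fgf1 null (adjusted p 0.59), with an interaction of -2.61 ± 0.39 (adjusted p 0.00065). On chow, the sample labelled Fgf1 null was 3.49-fold above wild-type (1.80 ± 0.27, adjusted p 0.00075), a call lost just under 2-fold in the authors' normalized values. On HFD, Fgf1 null differed from wild-type by -0.81 ± 0.27 (adjusted p 0.056), and by a called -1.09 without the second Fgf1 null HFD array.

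Cebpb read 11.43 and 11.42 in Fgf1 null HFD eWAT, 11.65 and 11.40 in the chow eWAT labelled Fgf1 null, 11.67 and 11.71 in wild-type HFD eWAT and 10.27 and 10.49 in wild-type chow eWAT. The first 3 samples lay close together and wild-type chow lay below them. The part of hepatocyte RNA, highest in wild-type HFD eWAT by marker sum, was not tested for Cebpb either. Its diet difference was 1.31 ± 0.13 in wild-type (2.48-fold, adjusted p 6.1e-05) and -0.10 ± 0.13 in Fgf1 null (adjusted p 0.59), with an interaction of -1.42 ± 0.19 (adjusted p 0.00037). On chow, the sample labelled Fgf1 null was 2.21-fold above wild-type (1.15 ± 0.13, adjusted p 0.00017), and on HFD the difference was -0.27 ± 0.13 (adjusted p 0.16).

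Neither coactivator was called for diet or genotype in eWAT. Ppargc1b read 8.78 and 8.62 in Fgf1 null HFD eWAT, 7.55 and 8.04 in the chow eWAT labelled Fgf1 null, 8.34 and 8.38 in wild-type HFD eWAT and 7.63 and 7.89 in wild-type chow eWAT. Both HFD samples lay above both chow samples, by 1.87-fold in Fgf1 null (0.90 ± 0.18, adjusted p 0.0069) and 1.51-fold in wild-type (0.60 ± 0.18, adjusted p 0.019). Without the second chow array labelled Fgf1 null, the difference in Fgf1 null was a called 1.15. Ppargc1a, a dim probe at raw intensities of 141 to 233, read 6.47 and 6.26 in Fgf1 null HFD eWAT, 6.02 and 5.98 in the chow eWAT labelled Fgf1 null, 5.39 and 6.16 in wild-type HFD eWAT and 6.39 and 6.71 in wild-type chow eWAT. The wild-type HFD arrays were far apart. The diet difference was 0.37 ± 0.24 in Fgf1 null (adjusted p 0.28) and -0.77 ± 0.24 in wild-type (adjusted p 0.024, under 2-fold). One array decided the wild-type value: it was a called -1.16 (adjusted p 0.0017) without the second wild-type HFD array and -0.38 without the first. The interaction was called at 1.14 ± 0.34 (adjusted p 0.022). That call was lost when any 1 of 5 arrays was left out, among them the first wild-type HFD array (0.75), and under 4 other settings, down to 0.48 without background correction and in the authors' normalized values. Klf15 was detected on 1 of 8 eWAT arrays, the second of wild-type chow, and was not tested there.

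Of the 6 members tested in eWAT, 3 were called higher on HFD in wild-type (Pparg, Cebpa and Cebpb) and 0 lower. The same test called 33.3% of all 11935 genes, 16.6% higher and 16.7% lower. For diet in Fgf1 null, 1 member was called, higher on HFD (Rxra), where 10.2% of all genes were called, 4.18% higher and 6.02% lower. On chow, 3 members were higher in the sample labelled Fgf1 null than in wild-type, where 27.3% of all genes were called, 13.7% higher and 13.6% lower. On HFD, 0 members were called between the genotypes, where 11.3% of all genes were called, 5.27% higher and 6.01% lower, and 5139 genes had an unadjusted p under 0.05 in limma. Of the interactions, 4 of 6 were called, 1 above and 3 below 0, where 39.5% of all genes were called, 19.3% above and 20.2% below. The HFD minus chow and the genotype comparisons share samples: both comparisons with 3 calls have wild-type chow eWAT as their lower group. When the arrays of each RNA sample were averaged and an additive model of diet and genotype was fitted to the 4 eWAT samples, limma called 0 genes. At an unadjusted p under 0.05 it found 197 for diet and 73 for genotype. In that fit Pparg had a diet difference of 1.44 ± 0.53. The only spread that the fit measures is the diet by genotype interaction, so it could hardly call a gene whose diet response differs between genotypes.

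Genes known as PPARγ targets and fat cell genes were also examined. For this and the following lists in eWAT, 33.3% of all genes were called for diet in wild-type and 10.2% for diet in Fgf1 null. Between the genotypes, 27.3% were called on chow and 11.3% on HFD. Of the 22 measured in eWAT, 15 were called higher and none lower with HFD in wild-type, with a median of 1.41 against 0.11 over all genes. Among them, Fabp5, a fatty acid binding protein, was 13.9-fold higher, Dgat2, which makes triglyceride, 11.1-fold and Agpat2, an acyltransferase of lipid synthesis, 9.08-fold. For diet in Fgf1 null, 3 were called higher and 5 lower on HFD, with a median of 0.20 against -0.03 over all genes. There Pck1, of glycerol synthesis in fat, was 7.07-fold higher, while Cidea, a lipid droplet protein, was 5.35-fold lower and Dgat2 4.17-fold lower. On chow, 13 were higher and 0 lower in the sample labelled Fgf1 null than in wild-type (median 1.17, against 0.07 over all genes), with Fabp5 9.19-fold, Dgat2 8.78-fold and Lep, which encodes leptin, 5.39-fold higher. On HFD, 1 was higher and 7 lower in Fgf1 null than in wild-type (median -0.17, against 0.01), with Agpat2 5.34-fold, Dgat2 5.27-fold and Fabp5 4.56-fold lower. Pparg itself differed by -0.06 ± 0.11 between those HFD samples on its brightest probe. Its other probes differed by 0.75 ± 0.14 and -0.60 ± 0.18, neither called. Hepatocyte markers were lower in 12 of 13 and macrophage markers in 5 of 9 in Fgf1 null there. The part of these cells in the target differences was not tested.

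Liver genes known as C/EBP targets were called in 11 of 14 measured members in wild-type HFD eWAT against chow, all higher, with a median of 2.91. Of all genes, 16.6% were called higher in that comparison. Ttr, a plasma transport protein, was 136-fold higher, Cps1, of the urea cycle, 89.3-fold, and the clotting factor gene F9 at least 47.4-fold. These are genes of hepatocytes, whose markers were called higher in 12 of 13 measured members in the same comparison, with a median of 6.49. On HFD, 11 of the 14 C/EBP targets were lower in Fgf1 null than in wild-type eWAT and 1 was higher (median -2.37). There 12 of 13 hepatocyte markers were lower too (median -5.74). Of the C/EBP targets on chow, 6 were higher and 3 lower in the sample labelled Fgf1 null than in wild-type (median 0.03), with Saa3, an acute phase protein also made by macrophages, 44.8-fold higher. Macrophage markers were higher in 8 of 9 members in that comparison. For diet in Fgf1 null, 3 were higher and 3 lower (median -0.34), and Saa3 was 9.28-fold lower.

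PPARα targets, 19 of them measured in eWAT, were called higher in 10 and lower in 1 on HFD in wild-type (median 1.00, against 0.11 over all genes), although Ppara itself was not detected. Among them were the liver genes Cyp4a14, a fatty acid hydroxylase, at 22.9-fold and Acaa1b, of peroxisomal oxidation, at 11.5-fold. With Fgf1 null, 5 were higher and 0 lower on HFD (median 0.24), with Fgf21, a hormone of fasting, 5.16-fold higher. All 17 exocrine pancreas markers were higher in that comparison too (median 10.25), and the part of pancreas RNA in these differences was not tested. PGC-1 target genes of mitochondria, 18 measured, were called higher in 4 and lower in 2 on HFD in wild-type eWAT (median 0.35). Of all genes, 16.6% were called higher and 16.7% lower in that comparison, and the PGC-1 counts lie near those shares. Tfam, of mitochondrial DNA packaging, was 9.08-fold lower there, and Idh3a, of the citric acid cycle, was 4.48-fold higher. For diet in Fgf1 null, 1 was higher and 3 lower (median -0.17), where 4.18% of all genes were called higher and 6.02% lower. Amino acid breakdown genes, 12 measured, were higher in 5 and lower in 0 on HFD in wild-type, with Hpd, of tyrosine breakdown, at least 31.5-fold and Gpt, alanine aminotransferase, 17.2-fold higher. Among 28 related transcription factors, 9 were higher and 4 lower in wild-type with HFD, where 33.3% of all genes were called. Rxrg, an RXR isoform, was 5.93-fold higher, and Gata3, known to hold back fat cell formation, was at least 32.6-fold lower on HFD, being undetected there. Gata3 was also at least 9.06-fold higher in Fgf1 null than in wild-type HFD eWAT. Epididymis markers, 8 measured, were lower in 6 in the first of these comparisons (median -8.14) and higher in 6 in the second (median 6.32). Their part in the Gata3 differences was not tested. Of 14 nuclear receptor coregulators, 1 was called higher and 1 lower for diet in wild-type, where 33.3% of all genes were called. Lpin1, which binds PPARα and PGC-1α, was 3.19-fold higher, and Smarcd3, a chromatin remodelling subunit, 12.4-fold lower.

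In liver, Pparg was higher on HFD than on chow in Fgf1 null, and on HFD it was higher in Fgf1 null than in wild-type. It read 9.30 and 9.40 in Fgf1 null HFD liver, 7.84 and 7.79 in Fgf1 null chow liver, 7.45 and 7.30 in wild-type HFD liver and 8.01 and 7.98 in wild-type chow liver. Fgf1 null HFD was highest and wild-type HFD lowest, and no 2 groups overlapped. In Fgf1 null liver, HFD exceeded chow by 1.54 ± 0.12 (adjusted p 0.00011). In wild-type liver it was 1.54-fold lower on HFD (-0.62 ± 0.12, adjusted p 0.0096), under 2-fold and not called. This difference ran from -0.62 to -0.15 over the settings of the array fit. The diet responses differed between genotypes by 2.16 ± 0.17 (adjusted p 0.00033). On HFD, Fgf1 null liver was 3.92-fold above wild-type (1.97 ± 0.12, adjusted p 6e-05), and on chow the difference was -0.18 ± 0.12 (adjusted p 0.39). The other Pparg probes, ILMN_1221594 and ILMN_1221893, were detected in liver on the 2 arrays of Fgf1 null HFD and on no other. Their HFD minus chow differences in Fgf1 null were 0.70 ± 0.17 and 0.74 ± 0.13, positive but under 2-fold. In wild-type, on undetected readings, their diet differences were 0.04 ± 0.17 and 0.11 ± 0.13. Between genotypes on HFD they differed by 0.74 ± 0.17 (adjusted p 0.026) and 0.54 ± 0.13 (adjusted p 0.037), and their interactions were 0.66 ± 0.23 (adjusted p 0.12) and 0.63 ± 0.19 (adjusted p 0.076), none of them called. With the mean of the kept probes in place of the brightest, the diet difference in Fgf1 null was 0.99 ± 0.12 and not called, the genotype difference on HFD a called 1.09 and the interaction a called 1.15.

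Markers of macrophages and fat cells, which also express Pparg, were read beside it. Macrophage markers summed to 7150 to 7670 in Fgf1 null HFD liver, 3170 to 3220 in Fgf1 null chow liver, 4220 to 4660 in wild-type HFD liver and 2460 to 2470 in wild-type chow liver. Of the 9, Itgam was detected on neither array of Fgf1 null HFD, and 6 of 8 measured were called higher there than in Fgf1 null chow. Adipocyte markers summed to 4100 to 4480 in Fgf1 null HFD liver, 5770 to 6140 in Fgf1 null chow, 2480 to 2770 in wild-type HFD and 5100 to 5390 in wild-type chow. Of the 7 on the array, 3 were detected on both arrays of Fgf1 null HFD liver and Adipoq, Plin1 and Fabp4 on neither, where the Fabp4 probe was also undetected in 2 of the eWAT samples. Of 4 measured in liver, Cidec, which coats lipid droplets, was called higher in Fgf1 null HFD, by 3.05-fold over Fgf1 null chow and 33.5-fold over wild-type HFD, where it was detected on 1 array. Pnpla2, a triglyceride lipase, was 2.36-fold lower than in Fgf1 null chow. The part of macrophage and fat cell RNA in the Pparg difference was not tested.

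**Figure D3:**
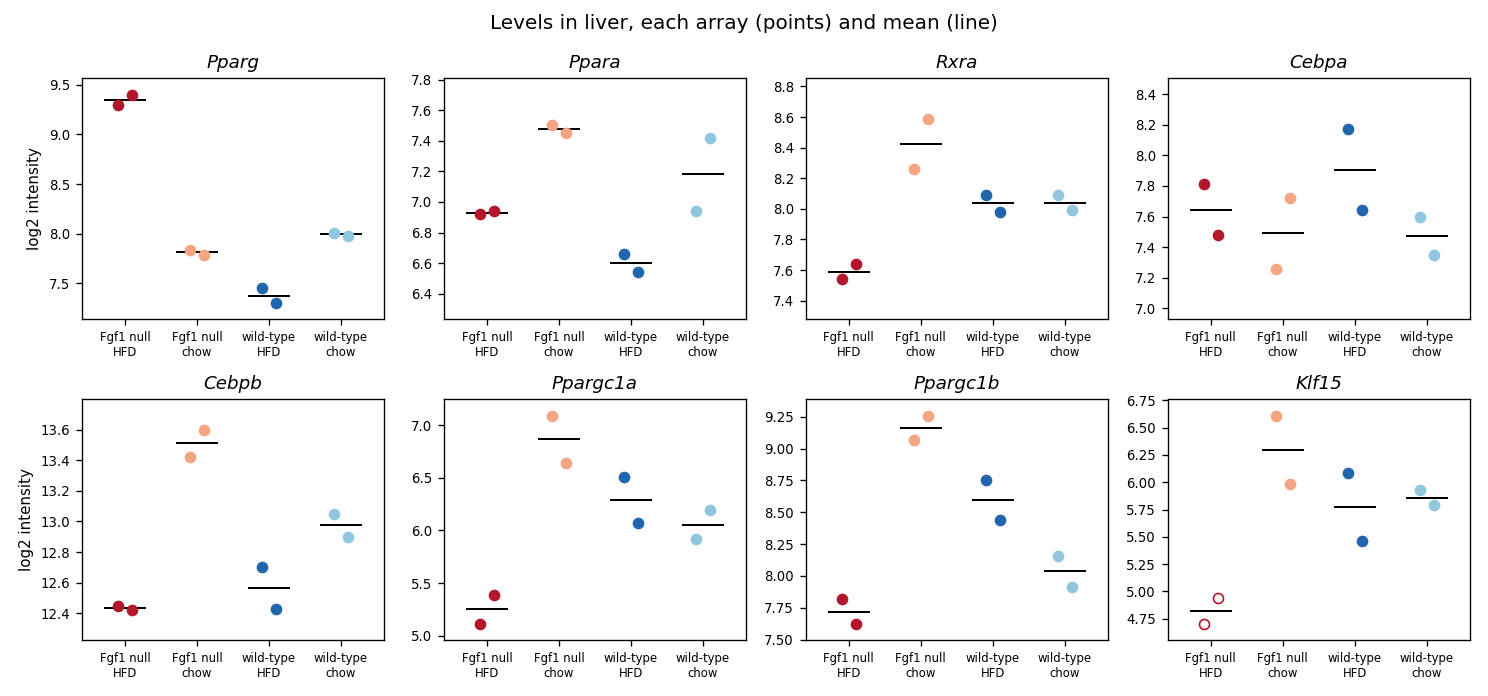
Log2 intensity (vertical axis) of the 8 members tested in liver, by genotype and diet; points are the 2 arrays of a group (open where not detected) and the line is their mean. In Fgf1 null HFD, Pparg is highest at 9.30 and 9.40, and Ppargc1a, Ppargc1b and Klf15 are lowest.

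Ppara read 6.92 and 6.94 in Fgf1 null HFD liver, 7.50 and 7.45 in Fgf1 null chow liver, 6.66 and 6.54 in wild-type HFD liver and 6.94 and 7.42 in wild-type chow liver. Within each genotype both HFD arrays lay below both chow arrays. The diet difference was -0.55 ± 0.17 in Fgf1 null (1.47-fold lower, adjusted p 0.044) and -0.57 ± 0.17 in wild-type (1.49-fold lower, adjusted p 0.047), both under 2-fold. The interaction was 0.02 ± 0.24 (adjusted p 0.96), and the genotypes differed by 0.32 ± 0.17 on HFD (adjusted p 0.24) and 0.30 ± 0.17 on chow (adjusted p 0.33). Rxra read 7.54 and 7.64 in Fgf1 null HFD liver, 8.26 and 8.59 in Fgf1 null chow liver, 8.09 and 7.98 in wild-type HFD liver and 8.09 and 7.99 in wild-type chow liver. Fgf1 null HFD was lowest and Fgf1 null chow highest, and the wild-type samples coincided. Its diet difference was -0.84 ± 0.14 in Fgf1 null (1.79-fold lower, adjusted p 0.005), under 2-fold but called without the first Fgf1 null chow array, and 0.00 ± 0.14 in wild-type (adjusted p 0.99). Ppard was detected on 0 of 8 liver arrays, at raw intensities of 94 to 119.

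Cebpa varied little in liver: its 8 arrays lay between 7.26 and 8.17, and its 4 diet and genotype differences lay between -0.26 and 0.43, and the smallest adjusted p was 0.23. Cebpb, at raw intensities of 5570 to 12495, read 12.45 and 12.42 in Fgf1 null HFD, 13.42 and 13.60 in Fgf1 null chow, 12.70 and 12.43 in wild-type HFD and 13.05 and 12.90 in wild-type chow. HFD lay below chow in both genotypes, by 2.11-fold in Fgf1 null (-1.07 ± 0.14, adjusted p 0.0014) and 1.33-fold in wild-type (-0.41 ± 0.14, adjusted p 0.076). The interaction was -0.66 ± 0.20 (adjusted p 0.068). The Fgf1 null call fell under 2-fold, at -0.99, without the second Fgf1 null chow array. It did so too at -0.96 with both tissues normalized together and at -0.86 in the authors' normalized values.

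The coactivators and Klf15 had their highest mean in Fgf1 null chow liver and their lowest in Fgf1 null HFD liver, and all 3 were called lower on HFD in Fgf1 null. Ppargc1a read 5.11 and 5.39 in Fgf1 null HFD liver, 7.09 and 6.64 in Fgf1 null chow liver, 6.51 and 6.07 in wild-type HFD liver and 5.92 and 6.19 in wild-type chow liver. The Fgf1 null samples lay on either side of the wild-type samples, which overlapped. It was 3.06-fold lower on HFD in Fgf1 null (-1.61 ± 0.22, adjusted p 0.0016) and differed by 0.23 ± 0.22 in wild-type (adjusted p 0.49), with an interaction of -1.85 ± 0.31 (adjusted p 0.0087). Without background correction the diet difference in Fgf1 null was -0.74 and the interaction -0.86, both under 2-fold. On HFD, Fgf1 null lay 2.05-fold below wild-type (-1.04 ± 0.22, adjusted p 0.017). This last call was lost without the first or the second Fgf1 null HFD array or the first wild-type HFD array, with values of -0.90, -1.18 and -0.82. It was also under 2-fold in the authors' normalized values (-0.70), with an offset of 50 (-0.64) and without background correction (-0.43).

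Ppargc1b read 7.82 and 7.62 in Fgf1 null HFD liver, 9.07 and 9.26 in Fgf1 null chow liver, 8.75 and 8.44 in wild-type HFD liver and 8.16 and 7.91 in wild-type chow liver. No 2 groups overlapped. It was 2.73-fold lower on HFD in Fgf1 null (-1.45 ± 0.16, adjusted p 7e-04) and 1.48-fold higher in wild-type (0.56 ± 0.16, adjusted p 0.047, under 2-fold), and these responses differed by -2.01 ± 0.23 (adjusted p 0.0018). On chow, Fgf1 null liver was 2.19-fold above wild-type (1.13 ± 0.16, adjusted p 0.0094), a call lost without the second Fgf1 null chow array (1.04, adjusted p 0.072), without background correction (0.93) and in the authors' normalized values (0.85). On HFD, Fgf1 null differed from wild-type by -0.88 ± 0.16 (1.84-fold lower, adjusted p 0.011), under 2-fold, and by a called -1.03 without the second wild-type HFD array.

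Klf15 read 4.70 and 4.94 in Fgf1 null HFD liver, 6.61 and 5.98 in Fgf1 null chow liver, 6.08 and 5.46 in wild-type HFD liver and 5.93 and 5.79 in wild-type chow liver. It was detected on both arrays of every liver sample except Fgf1 null HFD, where it was detected on neither. It was therefore at least 2.26-fold lower on HFD in Fgf1 null (adjusted p 0.0056), a bound set by the lowest detected signal of those arrays. The fitted difference of -1.48 ± 0.26 was under 2-fold with an offset of 50 (-0.86) and without background correction (-0.62). In wild-type liver the diet difference was -0.09 ± 0.26 (adjusted p 0.84). Between genotypes on HFD the bound was 1.57-fold (fitted difference -0.95 ± 0.26, adjusted p 0.046), under 2-fold and not called. The fitted difference was called at -1.56 with both tissues normalized together (adjusted p 0.0029), at -1.10 with median scaling and at -1.27 without the second wild-type HFD array, and was -0.39 at the other end of the settings. The interaction was called at -1.39 ± 0.37 (adjusted p 0.047), and this call was lost when any 1 of 6 of the 8 arrays was left out, with adjusted p up to 0.14. It was also lost without background correction (-0.59), with an offset of 50 (-0.81) and with no filter on dim probes (adjusted p 0.076).

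Of the 8 members tested in liver, 1 was called higher on HFD in Fgf1 null (Pparg) and 4 lower (Cebpb, Ppargc1a, Ppargc1b and Klf15). The same test called 8.58% of all 8894 genes, 5.88% higher and 2.7% lower. In wild-type liver limma called 0 of 8 members for diet, where it called 5.72% of all genes, 3.24% higher and 2.48% lower, and 3165 genes had an unadjusted p under 0.05. Of the 8 members, Pparg, Ppara and Ppargc1b had an adjusted p under 0.05 there but changed less than 2-fold. On chow, 1 member was called between the genotypes (Ppargc1b, higher in Fgf1 null), where 1.79% of all genes were called, 1% higher and 0.787% lower. On HFD, 1 was called higher in Fgf1 null (Pparg) and 1 lower (Ppargc1a), where 4.96% of all genes were called, 3.34% higher and 1.62% lower. For the interaction, 1 was above and 3 below 0, where 7.9% of all genes were called, 4.53% above and 3.37% below. With the arrays of each RNA sample averaged and an additive model on the 4 liver samples, limma called 0 genes, with 1177 at an unadjusted p under 0.05 for diet and 302 for genotype. That model assumes the same diet difference in both genotypes, and the departure from this is the only spread it measures. In it Cebpb had a diet difference of -0.74 ± 0.25.

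**Figure D4:**
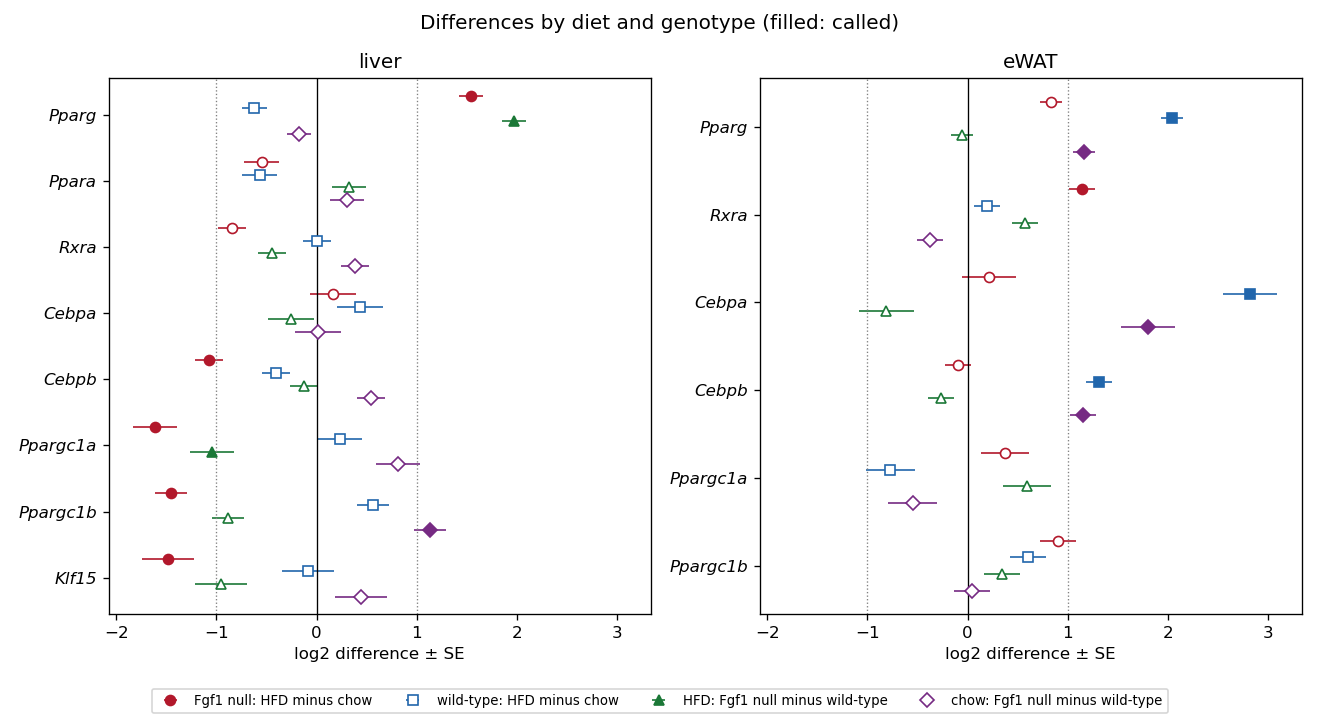
Log2 differences ± SE (horizontal axis) of each member in liver (left) and eWAT (right) for the 4 diet and genotype comparisons; filled symbols are called, dotted lines mark 2-fold, and fitted values are plotted for Klf15. In wild-type the called diet differences are in eWAT (Pparg, Cebpa and Cebpb), and in Fgf1 null liver they are Pparg at 1.54 and Cebpb, Ppargc1a, Ppargc1b and Klf15 below -1.

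Of the genes known as PPARγ targets, 14 were measured in liver, and 3 were higher and 2 lower on HFD in Fgf1 null (median 0.07). Cidea was at least 33.2-fold higher, and Lpl, lipoprotein lipase, 5.47-fold. On HFD, 4 were higher and 2 lower in Fgf1 null than in wild-type (median 0.30, against 0.01 over all genes), with Cidea at least 35.1-fold, Cidec, which fuses lipid droplets, 33.5-fold and Plin4, a droplet coat protein, 6.07-fold higher. In wild-type liver 1 was higher and 5 lower on HFD, with Cidec at a difference of -3.58 (log2) and Plin4 9.66-fold lower. On its brightest probe Pparg itself had its lowest reading in that sample, where its other probes were undetected.

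PPARα targets fell on HFD in 14 of 19 measured members in wild-type liver (median -1.24, against 0.00 over all genes), with Cyp4a14 237-fold, Acot1, a thioesterase, 27.2-fold and Ehhadh, of peroxisomal oxidation, 7.55-fold lower. In Fgf1 null liver 4 were lower and 1 higher on HFD (median -0.51), with Cyp4a14 49.3-fold, Ehhadh 6.44-fold and Acot1 4.85-fold lower. The Ppara transcript differed by nearly the same amount in both genotypes, as given above. On HFD, 7 of the 19 were higher and 0 lower in Fgf1 null than in wild-type (median 0.73), with Fgf21 5.53-fold and Acot1 4.69-fold higher. The interaction was called in 9, all above 0 (median 0.97).

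For the lists in liver, 8.58% of all genes were called for diet in Fgf1 null, 5.88% higher and 2.7% lower. For diet in wild-type 5.72% were called, and 1.79% between the genotypes on chow. C/EBP targets of liver, 15 measured, were lower in 4 and higher in 2 on HFD in Fgf1 null (median -0.09). Pck1, the gluconeogenic enzyme, was 4.18-fold, Igfbp1 4.05-fold and Gys2, liver glycogen synthase, 3.12-fold lower. In wild-type liver 3 were higher and 1 lower, with the acute phase genes Orm2 9.46-fold and Saa3 4.72-fold higher. On chow, 2 were higher in Fgf1 null than in wild-type, Gys2 at 4.06-fold and Igfbp1 at 2.10-fold. Amino acid breakdown genes, a set that KLF15 is known to promote in part, were lower in 5 and higher in 0 of 13 on HFD in Fgf1 null (median -0.52), with Cth 4.81-fold, Got1 3.96-fold and Tdo2 2.80-fold lower. In wild-type liver 1 was lower on HFD, Oat at 2.22-fold (median -0.42), where 2.48% of all genes were called lower. For 13 genes a count of 1 lies near that share. Of 18 PGC-1 target genes of mitochondria, limma called 0 in each of the 5 liver comparisons, where 1.79% to 8.58% of all genes were called. For 18 genes a count of 0 lies near those shares. Their medians were -0.05 to 0.12, and Ppargc1a and Ppargc1b were called lower on HFD in Fgf1 null. Among 20 related transcription factors, Srebf1, the driver of fatty acid synthesis, was 4.58-fold higher on HFD in Fgf1 null and 15.0-fold in wild-type. Lpin1, a coregulator of PPARα, was 2.75-fold lower on HFD in Fgf1 null.

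Compared between tissues, on values from all 16 arrays normalized together, Pparg was lower in liver than in eWAT in all 4 backgrounds. The differences were -2.59 ± 0.10 in Fgf1 null on HFD, -3.08 ± 0.10 in Fgf1 null on chow, -4.45 ± 0.10 in wild-type on HFD and -1.65 ± 0.10 in wild-type on chow, with adjusted p of at most 4.6e-08. In order of level, the 4 eWAT samples came first and Fgf1 null HFD liver came next, at 9.94 ± 0.07 (SD, n = 2) against 10.35 ± 0.04 in wild-type chow eWAT. Fgf1 null HFD eWAT at 12.54 ± 0.03 and wild-type HFD eWAT at 12.60 ± 0.12 overlapped. Every other pair of neighbours in the order was separate on both arrays.

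Ppara went the other way: it was at least 6.06-fold higher in liver in Fgf1 null on HFD, 9.33-fold in Fgf1 null on chow, 4.89-fold in wild-type on HFD and 8.23-fold in wild-type on chow. These bounds hold for background-corrected values: without that correction the fitted log2 differences, all called, were 1.43, 1.85, 1.21 and 1.66 in that order, smaller than the bounds. Wild-type HFD eWAT, which had the highest hepatocyte marker sum of the eWAT samples (213000 to 224000), was no exception: Ppara read 4.88 on both arrays and was not detected. Cebpb was higher in liver by 1.56 ± 0.13, 2.41 ± 0.13, 1.38 ± 0.13 and 3.19 ± 0.13 in the same order of backgrounds, all called. Rxra was called higher in 3 of 4 backgrounds, by 2.49 ± 0.13 in Fgf1 null on chow, 1.56 ± 0.13 in wild-type on HFD and 1.76 ± 0.13 in wild-type on chow, and by 0.57 ± 0.13 in Fgf1 null on HFD, under 2-fold. Ppargc1b behaved alike, at 2.51 ± 0.18, 1.40 ± 0.18 and 1.52 ± 0.18 in the called backgrounds and 0.26 ± 0.18 in Fgf1 null on HFD. Klf15 was at least 4.39-fold higher in liver in Fgf1 null on chow and at least 2.73-fold in wild-type on HFD, and 4.05-fold in wild-type on chow. Without background correction the log2 difference was under 2-fold in wild-type on HFD (0.70) and on chow (0.89), and in the authors' normalized values it was under 2-fold in wild-type on HFD (0.86), which ended these calls. In Fgf1 null on HFD, Klf15 differed by 0.40 ± 0.27 (adjusted p 0.23), or a called 1.09 with median scaling, and was detected in neither tissue. Ppargc1a differed by 0.02 ± 0.24 in that background, against 2.08 ± 0.24 in Fgf1 null on chow, 1.71 ± 0.24 in wild-type on HFD and an uncalled 0.87 ± 0.24 in wild-type on chow. The call in wild-type on HFD was lost in the authors' normalized values (0.94) and without background correction (0.82), and the chow difference was called, at 1.00 and 1.01, without either of 2 arrays.

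Cebpa was called higher in liver only in wild-type on chow (2.48 ± 0.28, adjusted p 1e-05), where eWAT had its lowest level, and differed by 0.11 ± 0.28 in wild-type on HFD (adjusted p 0.78). In Fgf1 null it differed by 0.71 ± 0.28 on HFD (adjusted p 0.053) and 0.79 ± 0.28 on chow (adjusted p 0.03, under 2-fold). Leaving out 1 array made these called differences, at 1.01 on HFD and at 1.00 to 1.18 on chow. Counted over the 8 members tested, 2 were higher and 1 lower in liver in Fgf1 null on HFD, where 31.7% of all 12206 genes were called, 13.7% higher and 18% lower. In each of the other backgrounds 6 were higher and 1 lower, while 39.7% of all genes were called in Fgf1 null on chow (16.1% higher, 23.6% lower), 32.8% in wild-type on HFD (14.3% higher, 18.5% lower) and 45.1% in wild-type on chow (20.4% higher, 24.7% lower). Tissue differences of all genes shifted with the scaling: their median was between -0.11 and -0.06 here and between 0.33 and 0.62 with scaling to a common median. With that scaling 2510 genes were higher and 1652 lower in liver in Fgf1 null on HFD, against 1678 and 2194 with quantile normalization. The counts were 4034 and 1995 against 1970 and 2876 in Fgf1 null on chow, 3191 and 1644 against 1746 and 2258 in wild-type on HFD, and 4620 and 1982 against 2488 and 3012 in wild-type on chow. Pparg stayed lower in liver by a called difference in all 4 backgrounds under each of the 8 settings tried and with any single array left out.

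**Figure D5:**
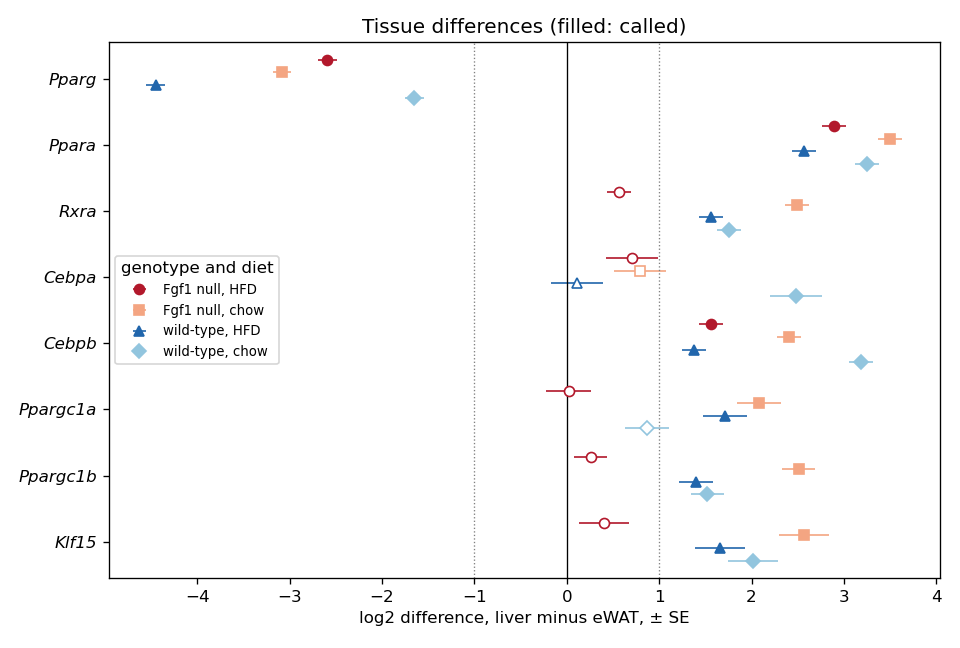
Log2 differences of liver minus eWAT ± SE (horizontal axis) of 8 members in the 4 combinations of genotype and diet; filled symbols are called and dotted lines mark 2-fold. Fitted differences are plotted also where a gene was undetected in 1 tissue, as Ppara was in eWAT. Pparg lies to the left in all 4, down to -4.45 in wild-type HFD, and Ppara and Cebpb to the right.

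The genes whose levels ran most like each member over the 8 group means were found among those detected on both arrays of at least 1 group in each tissue. For Pparg, among 7933 genes, they were Camk2d (r = 0.991), Kcnj8 (0.988) and Vwf (0.987). For Ppara they were Mtif3 (0.998), Nr1i2 (0.995) and Chdh (0.995), and for Rxra Cul4a (0.989), Bach1 (0.988) and Acad8 (0.986). Cebpa was most like Stat6 (0.968), Nr1h3 (0.965) and Ak3 (0.965), and Cebpb most like Tango2 (0.996), Slc25a25 (0.993) and Tor1a (0.992). Ppargc1a was most like Plxnb1 (0.983), Zfp78 (0.977) and Casp6 (0.972), and Ppargc1b like H2-M10.1 (0.981), D10Wsu102e (0.977) and Rfxank (0.977). For Klf15 they were Dicer1 (0.987), Meak7 (0.986) and Pspc1 (0.983). These are 8 points that share arrays, normalization and a split by tissue, and they are given as a description only.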

How the data were processed

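Total RNA was hybridized to 16 one-colour bead arrays. The deposited table of non-normalized values gives a linear intensity and a detection p-value per probe and array, processed in GenomeStudio per the submitters' processing notes, version not given. Another table that the authors deposited holds the authors' normalized intensity, method unstated. Its scale is linear, with column medians of 134.6 to 134.8, and each column ranked like its own array (r = 1) and at most at 0.955 with another.

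In R 4.3.3 with limma 3.58.1 and the package data.table in version 1.17.8, neqc corrected the background with an offset of 16. Quantiles were then matched across the 8 arrays of each tissue, or across all 16 for tissue differences. Background correction widens the differences of dim probes. Probes detected on both arrays of at least 1 group were kept: 15839 in eWAT, 11580 in liver and 16251 over both. Each gene was represented by its brightest kept probe, which gave 11935, 8894 and 12206 tests. A mean per group was fitted with empirical Bayes moderation, and p-values were adjusted by Benjamini-Hochberg within each comparison over all tests. An undetected group gives a bound from the lowest detected signal of its arrays. All folds given as at least a value hold for this background correction and offset, and can be smaller under other settings. The fits were tested on simulated data.

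With 1 RNA sample per group, the comparisons cannot measure the spread between mice, and more arrays of the same RNA would not change that. The 2 arrays per group limit the precision for each RNA sample. Replicate numbers do not pair arrays: deviations of same-numbered arrays correlated at -0.05 to 0.05 in eWAT and -0.07 to 0.01 in liver. Probe symbols came from the platform annotation, in which 23978 probes carry 1 symbol and 1719 none, and 23962 matched RefSeq (GRCm38.p6). The files name no build. Figures were drawn with Python 3.11.15 and matplotlib 3.10.9. The members and gene lists were chosen with earlier results of these data known. Named genes are all members, in each comparison at most the 3 called genes with the largest change per pathway list, Fgf1, and the 3 genes most like each member. Alternatives covered background correction, offset, scaling, the authors' values, probe choice, filter, fold minimum, replicate block, single arrays left out and averaged RNA samples.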

Additional observations from a re-analysis of the deposited data

Results flagged for a closer look

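In 8 cases the HFD minus chow difference of a member was not the same in the 2 genotypes by limma's interaction test, which compares the 4 RNA samples of a tissue. Of 6 members tested in eWAT, 1 was called above and 3 below 0, where 39.5% of all genes were called. Of 8 tested in liver, 1 was called above and 3 below 0, where 7.9% of all genes were called. In eWAT the Fgf1 null minus wild-type difference of diet responses was -1.21 for Pparg, -2.61 for Cebpa and -1.42 for Cebpb. Each of these genes read lowest in wild-type chow eWAT, the sample with sperm and testis markers and the lowest adipocyte marker sum. Wild-type HFD eWAT, also part of these differences, had the highest hepatocyte marker sum of the eWAT samples, at 213000 to 224000. The part of these other tissues in the interactions was not tested. For Ppargc1a in eWAT it was 1.14, on a dim probe whose wild-type HFD arrays read 5.39 and 6.16. In liver it was 2.16 for Pparg, -1.85 for Ppargc1a, -2.01 for Ppargc1b and -1.39 for Klf15. The Pparg values are of its brightest probe. The interaction was not called on ILMN_1221594 in eWAT (-0.41) or on the other 2 Pparg probes in liver (0.66 and 0.63). The call was lost under 4 other settings for Ppargc1a in eWAT, 1 for Ppargc1a in liver and 3 for Klf15 in liver. Pparg was highest, and Ppargc1a, Ppargc1b and Klf15 lowest, in Fgf1 null HFD liver, where Klf15 was not detected. With 1 RNA sample per group, genotype and sample cannot be told apart.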

How the results depend on the processing

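Of the 47 called member differences, 33 kept their call under every other setting of the array fit and 42 when single arrays were left out, and 0 called values changed sign. With the arrays of each RNA sample averaged in an additive model, the count of members called by limma was 0 in each of the 8 comparisons of diet or genotype within a tissue. At a 1.5-fold minimum the counts were 5 for diet in wild-type eWAT, 3 for diet in Fgf1 null eWAT, 4 for genotype in HFD liver and 1 for diet in wild-type liver. Without background correction they were 0 for diet in Fgf1 null eWAT, 1 for genotype in HFD liver, 0 for genotype in chow liver, 3 for diet in Fgf1 null liver and 2 for the liver interaction. With an offset of 50 they were 0 for diet in Fgf1 null eWAT and 1 for genotype in HFD liver. In the authors' normalized values they were 0 for diet in Fgf1 null eWAT, 1 for genotype in HFD liver and 0 for genotype in chow liver. For diet in Fgf1 null eWAT, median scaling and the mean of the kept probes gave 2 each. These counts are not a full list, and single calls changed in other comparisons too. With an offset of 50, Klf15 also lost its calls for diet in Fgf1 null liver and for the liver interaction. In the authors' values, so did Cebpa for genotype in chow eWAT and Cebpb for diet in Fgf1 null liver. Under both settings Ppargc1a lost its eWAT interaction. The causes were not tested. The averaged model gives a single diet and a single genotype difference per tissue, so each value stands for 2 of the 8 comparisons. It leaves no term for the interaction, which is the only spread that the model measures. A count of 0 was therefore nearly fixed where the interaction is large. The model was not run for the interaction or between tissues.

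Leaving out 1 array at a time, which leaves a lone array assumed to vary like the other groups, gave these ranges of members called. In eWAT they were 1 to 2 for diet in Fgf1 null, 3 to 4 for diet in wild-type, 0 to 1 for genotype on HFD, 3 to 3 for genotype on chow and 3 to 5 for the interaction. In liver they were 4 to 6 for diet in Fgf1 null, 0 to 0 for diet in wild-type, 1 to 4 for genotype on HFD, 0 to 1 for genotype on chow and 3 to 4 for the interaction. For genotype on HFD in liver, the count was 4 without the second wild-type HFD array and 1 without any other array of the comparison. Between tissues they were 3 to 4 in Fgf1 null on HFD, 7 to 8 in Fgf1 null on chow, 7 to 7 in wild-type on HFD and 7 to 8 in wild-type on chow. With the replicate number as a block, the counts were unchanged in all 14 comparisons, for example 3 for diet in wild-type eWAT and 5 for diet in Fgf1 null liver; the numbers share no known pairing. In eWAT, median scaling moved the median of all genes to 0.27, against 0.11, for diet in wild-type. Over all genes, the count called ran over the settings other than single arrays left out and averaged samples from 576 to 2863 for diet in Fgf1 null eWAT (1217 as reported), 2338 to 6131 for diet in wild-type eWAT (3969), 695 to 2818 for genotype in HFD eWAT (1346) and 1850 to 5449 for genotype in chow eWAT (3263). In liver the ranges were 333 to 1773 for diet in Fgf1 null (763), 238 to 1389 for diet in wild-type (509), 195 to 1092 for genotype on HFD (441) and 66 to 458 for genotype on chow (159). The lowest came without background correction or in the authors' values and the highest at the 1.5-fold minimum.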

Other observations

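Markers of other cells of fat were called in some of the comparisons in which Pparg was called. On HFD in wild-type eWAT, 9 of 9 measured macrophage markers (median 2.60) and 5 of 5 endothelium markers were higher than on chow. So were 4 of 7 fat stroma markers and 4 of 6 mesothelium markers, and none of these 4 lists had a lower member. There 33.3% of all genes were called. On chow, 8 of 9 macrophage markers (median 3.40) and 4 of 5 endothelium markers were higher in the eWAT sample labelled Fgf1 null than in wild-type. So were 4 of 7 stroma and 3 of 6 mesothelium markers, where 27.3% of all genes were called. The part of these cells in the Pparg differences was not tested. The nuclear receptor Nr1h3, which senses oxysterols and is a PPARγ target in macrophages and fat cells, was 3.44-fold higher in that chow comparison. Klf5, a factor of early fat cell formation, was 3.55-fold lower. In liver on chow, Nr1d1, a repressor of the circadian clock, was 2.95-fold lower in Fgf1 null than in wild-type, and on HFD Srebf1 was 2.01-fold lower.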
